A study of Homo sapiens with 6 samples.

Results

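The genes described here are 10 that encode proteins the liver secretes into plasma: albumin (ALB), the carriers transthyretin (TTR) and retinol-binding protein 4 (RBP4), alpha-1 antitrypsin (SERPINA1), fetuin-A (AHSG), the precursor AMBP and the inter-alpha-trypsin inhibitor heavy chains ITIH1, ITIH2, ITIH3 and ITIH4. They were taken by gene symbol from a table of 20289 genes, and all 10 were found, each on 1 row. The RNA came from 3 libraries of UBE2S knockout Huh7 cells (UBE2S-KO) and 3 libraries of wild-type Huh7 cells (WT). Huh7 is a human hepatocellular carcinoma line, and UBE2S adds ubiquitin to proteins that the anaphase-promoting complex selects for degradation. The study looked for factors that act downstream of UBE2S. The labels give no agent, time or passage, and they do not say how the knockout was made, whether the knockout cells were 1 clone, or whether replicates were separate cultures. The p-values therefore measure only the spread between these libraries, which may be technical.

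Albumin is the most abundant protein of plasma and carries fatty acids, hormones, bilirubin and drugs. Transthyretin binds thyroid hormone and holds the complex of retinol and retinol-binding protein in the circulation. AMBP is cut into alpha-1-microglobulin, a haem-binding carrier, and bikunin, a Kunitz-type inhibitor of trypsin. Bikunin is joined to heavy chains through a chondroitin sulfate chain, and the heavy chains can be passed on to hyaluronan in the matrix. In hepatocytes the transcription of such genes is known to depend on factors such as HNF4A, C/EBP and FOXA proteins.

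Library totals lay between 21840499 and 25840104 estimated counts in UBE2S-KO and between 23300336 and 27910396 in WT. UBE2S itself was at 45.7 ± 1.70 CPM in UBE2S-KO and 224 ± 9.37 CPM in WT (mean ± SD, n = 3 each; CPM, the usual scaling of counts to library size, here with TMM factors). WT replicate 1 stood apart: the chi-square per degree of freedom was 8.41 and 10.9 against the other WT libraries, 1.80 between those, and 1.40 to 1.55 among UBE2S-KO libraries. All 10 hepatocyte markers outside the 10 genes were detected, and their summed level was 26100 to 26600 CPM in UBE2S-KO and 27500 to 27900 CPM in WT, sums led by AFP and APOB. Of these 10 markers 4 were higher and 4 lower, with a median log2 fold change of -0.05. By the same test, given below, 29.4% of all tested genes were higher and 30.7% lower, so such marker counts were common. The 8 stromal markers summed to 26.9 to 28.6 CPM in UBE2S-KO and 146 to 161 CPM in WT, a difference held by COL1A2 (0.338 CPM in UBE2S-KO, 139 CPM in WT). Of the 6 tested, however, 4 were higher (COL1A1, PDGFRB, PDGFRA and COL3A1) and 2 lower, with a median of 0.52. The 6 immune markers summed to 179 to 182 CPM in UBE2S-KO and 290 to 313 CPM in WT, mostly LYZ, with CD3E at 0 in every library. The 6 endothelial markers summed to 2.41 to 2.91 CPM in UBE2S-KO and 6.06 to 7.42 CPM in WT, with KDR at 0, and the 6 cholangiocyte markers to 296 to 301 CPM in UBE2S-KO and 330 to 358 CPM in WT. The part of these markers in the results was not tested.

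Most of the plasma protein genes were lower in UBE2S-KO, and most of the falls were small. Of the 9 genes that passed the filter on low counts, 6 fell (ALB, TTR, SERPINA1, AHSG, AMBP and ITIH2), ITIH1 rose, and RBP4 and ITIH3 did not pass the test (edgeR quasi-likelihood test, Benjamini-Hochberg adjusted p below 0.05). ITIH4 was too low to be tested. TTR and AHSG fell to 67.2% and 68.2% of their WT level, whereas ALB, AMBP, SERPINA1 and ITIH2 kept 87.6% to 91.0% of it. Among all 13265 tested genes 60.1% were called, 29.4% higher and 30.7% lower, so a call alone was common. The counts of the markers above and of each gene list below are to be read against these shares. The groups did not overlap at 7 of the 9 tested genes, against 65.8% of all tested genes. The median log2 fold change over the 9 genes was -0.14, against -0.00060 over all tested genes. In bulk RNA, fewer cells that express a gene and less RNA per cell cannot be told apart. Together the 10 genes took 1.127%, 1.139% and 1.145% of all counts in the UBE2S-KO libraries and 1.244%, 1.261% and 1.259% in the WT libraries.

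**Figure D1:**
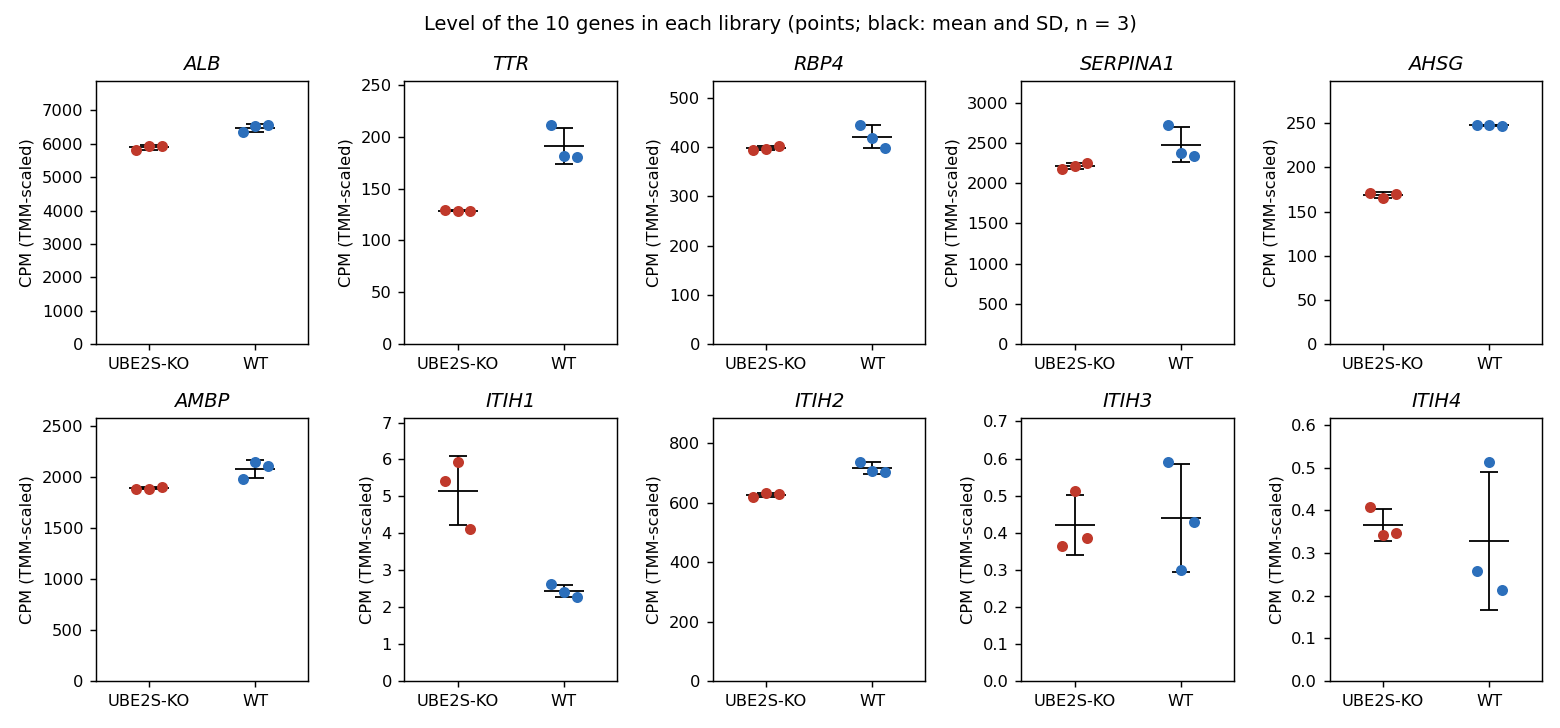
Level of each of the 10 genes in CPM (vertical axes, each starting at 0) in 3 UBE2S-KO and 3 WT libraries; points are libraries and black bars the mean and SD. The UBE2S-KO points lie below all WT points for ALB, TTR, SERPINA1, AHSG, AMBP and ITIH2, above them for ITIH1, and overlap them for RBP4, ITIH3 and ITIH4.

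Levels were set in order per kilobase of annotated exon. ALB came first, at 1745 ± 20.4 CPM per kb in UBE2S-KO and 1917 ± 35.6 in WT (mean ± SD, n = 3 each), and ranked 13 in UBE2S-KO and 12 in WT among 13222 tested genes with a length. AMBP followed at 925 ± 5.16 CPM per kb in UBE2S-KO and 1017 ± 41.8 in WT, at rank 20 in both groups. SERPINA1 was at 451 ± 7.52 CPM per kb in UBE2S-KO and 506 ± 43.5 in WT. These genes stood near the top of the line's mRNAs. RBP4 (274 ± 3.02 CPM per kb in UBE2S-KO, 290 ± 16.1 in WT) and ITIH2 (186 ± 1.87 in UBE2S-KO, 212 ± 5.75 in WT) came next. AHSG was at 71.8 ± 1.36 CPM per kb in UBE2S-KO and 105 ± 0.310 in WT, and TTR at 53.7 ± 0.259 in UBE2S-KO and 79.9 ± 7.25 in WT. The order of AHSG and TTR depends on the length used: per kilobase of the longest annotated transcript TTR was the higher, at 124 CPM per kb in UBE2S-KO and 184 in WT, against 98.7 and 145 for AHSG. The other heavy chain genes were far lower. ITIH1 was at 1.14 ± 0.206 CPM per kb in UBE2S-KO and 0.536 ± 0.0383 in WT. ITIH3 and ITIH4, at 0.0603 to 0.0743 CPM per kb on average in either group, did not differ from each other beyond their spread.

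**Figure D2:**
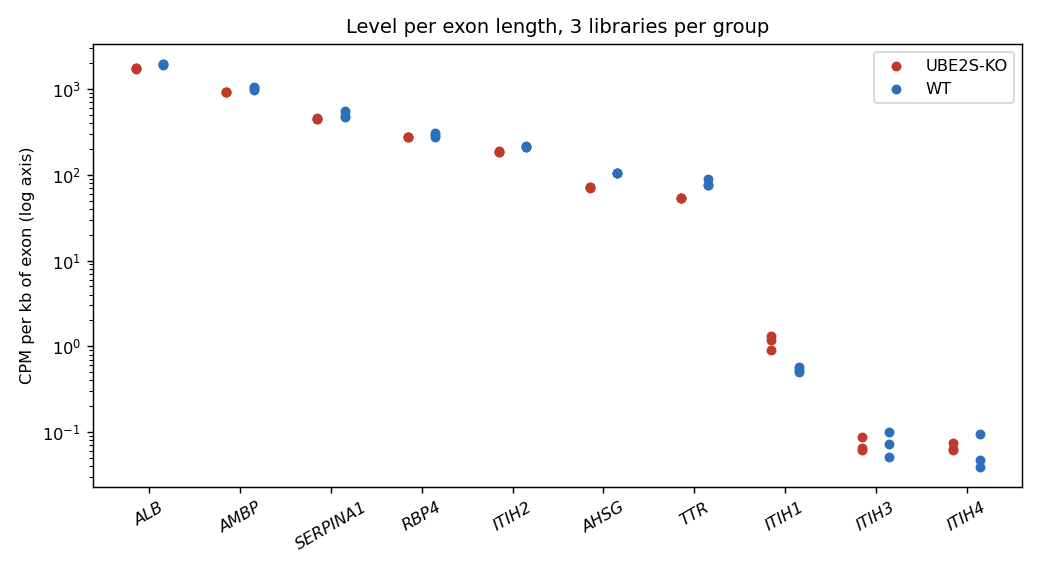
Level per kilobase of exon (CPM per kb, log axis) of the 10 genes, ordered by their WT mean, with 3 UBE2S-KO and 3 WT libraries each as points. ALB stands highest at 1745 CPM per kb in UBE2S-KO and 1917 in WT, and ITIH3 and ITIH4 lie lowest, at or below 0.0999.

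ALB (ENSG00000163631) lies on the plus strand of chromosome 4, from 73397114 to 73421412 in GRCh38. Its level was 5812, 5938 and 5924 CPM in the UBE2S-KO libraries and 6338, 6522 and 6565 CPM in the WT libraries. Every UBE2S-KO library lay below every WT library, by a small margin relative to the level. The log2 fold change was -0.14 (SE 0.03, edgeR adjusted p = 6.7e-04), that is 91.0% of WT. The albumin promoter is a classic model of liver-specific transcription, and a stretch that ends 48 bases before the RefSeq start is shown for its matches to the C/EBP motif and the CCAAT box. It holds no annotated exon but lies inside the annotated gene, which begins further upstream. The sequence is from RefSeq (GRCh38.p14, chr4:73404037-73404238, plus strand), and capitals mark, from 5′ to 3′, a reverse match to the C/EBP motif TTGCNNAA and a CCAAT box.
ALB promoter: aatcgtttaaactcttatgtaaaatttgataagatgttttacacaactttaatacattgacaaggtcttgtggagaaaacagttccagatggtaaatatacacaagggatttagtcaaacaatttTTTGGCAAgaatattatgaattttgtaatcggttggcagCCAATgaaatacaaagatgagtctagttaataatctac
These matches are descriptions of the sequence; no binding was measured.

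Of the other plasma carriers, 7 of 12 fell, 1 rose and 4 did not pass the test, with a median log2 fold change of -0.18 against -0.00060 over all tested genes. GC, the vitamin D-binding protein and a relative of albumin, had 116, 112 and 109 CPM in UBE2S-KO and 331, 322 and 327 CPM in WT. On the log2 scale it differed by -1.54 (SE 0.03, edgeR adjusted p = 3.2e-12), a change larger than that of any of the 9 tested genes of the set. The other albumin relatives also fell: AFM, afamin, a vitamin E carrier, by 0.84 on the log2 scale (SE 0.14) and AFP, the fetal albumin, by 0.13 (SE 0.03; log2 fold change -0.22 with the median of its neighbours subtracted). AFP averaged 11520 CPM in UBE2S-KO and 12610 CPM in WT. SERPINA7, the thyroxine-binding globulin, fell by 1.39 (SE 0.13), and HPX, the haem carrier hemopexin, rose by 0.27 (SE 0.04). Of 6 genes for uptake and recycling of albumin, 3 were higher, 1 lower and 2 did not pass. AMN, among the higher, lost its call with DESeq2 (adjusted p = 0.11) and without UBE2S-KO replicate 1 or 3 (adjusted p = 0.065 and 0.090). SPARC, an albumin-binding matrix protein, rose by 0.74 (SE 0.07), and FCGRT, the receptor that returns albumin from endosomes to plasma, by 0.22 (SE 0.05). B2M, the light chain of that receptor, was lower by 0.19 (log2 fold change -0.19, SE 0.03), but at -0.06 (adjusted p = 0.12) once the median of its neighbours, described further on, was subtracted.

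TTR (ENSG00000118271, chromosome 18, 31557010 to 31599021, plus strand) and RBP4 (ENSG00000138207, chromosome 10, 93591687 to 93601744, minus strand) encode proteins that travel together in plasma. TTR was at 129, 128 and 128 CPM in the UBE2S-KO libraries and 211, 182 and 181 CPM in the WT libraries. The groups were wide apart, and WT replicate 1 was the highest library. The log2 fold change of TTR was -0.57 (SE 0.05, edgeR adjusted p = 1e-06), and without WT replicate 1 it was -0.50. RBP4 was at 394, 396 and 403 CPM in the UBE2S-KO libraries and 445, 419 and 398 CPM in the WT libraries. The third WT library lay within the UBE2S-KO range. The log2 fold change of RBP4 was -0.08 (SE 0.04, 95% interval -0.16 to 0.00020, edgeR adjusted p = 0.079). It was -0.04 (adjusted p = 0.12) without WT replicate 1 and -0.12 (adjusted p = 0.010) without WT replicate 3, so this value rests on single libraries. RBP4 overlaps FFAR4 on the opposite strand, and since use of strand is not stated, their reads may not be told apart. FFAR4 itself was too low to pass the filter on low counts.

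The ratio of TTR to RBP4 within a library, in levels per kilobase, was 0.198, 0.196 and 0.192 in UBE2S-KO and 0.287, 0.262 and 0.275 in WT. Every UBE2S-KO ratio lay below every WT ratio, a difference of -0.49 on the log2 scale (two-sided exact permutation p = 0.10 over 20 splits, the smallest that 3 against 3 libraries allow; 0.20 when adjusted by Benjamini-Hochberg over the 6 ratios computed). Of 17 genes for retinol and thyroid hormone handling 12 were tested: 5 rose, 4 fell and 3 did not pass, with a median log2 fold change of 0.08. RBP2, which binds retinol inside cells, rose by 0.72 (SE 0.08). THRB, a thyroid hormone receptor, fell by 0.56 (SE 0.04), and RDH10, which oxidizes retinol, by 0.82 (SE 0.07). CYP26A1, which degrades retinoic acid, rose by 0.99 (SE 0.28) at a low level, with 1.18 CPM in UBE2S-KO against 0.583 CPM in WT. It lies near RBP4, and with the median of its neighbours subtracted CYP26A1 was at 0.72 (edgeR adjusted p = 0.044).

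**Figure D3:**
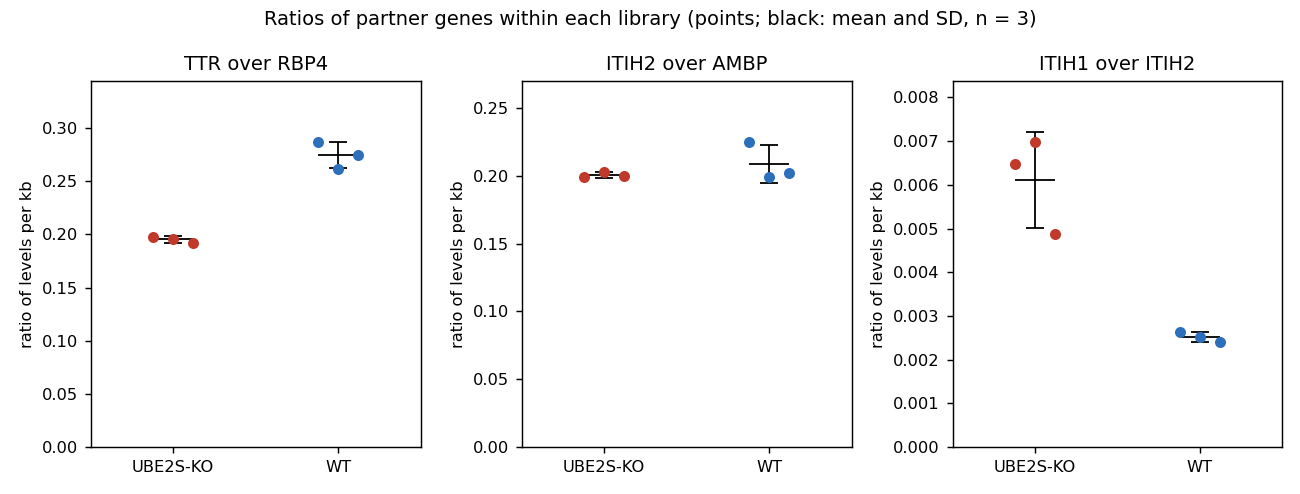
Ratios of levels per kilobase within each library for TTR over RBP4, ITIH2 over AMBP and ITIH1 over ITIH2 (vertical axes from 0), with 3 UBE2S-KO and 3 WT libraries as points and the mean and SD in black. TTR over RBP4 averages 0.195 in UBE2S-KO and 0.275 in WT, ITIH2 over AMBP 0.201 in UBE2S-KO and 0.209 in WT, and ITIH1 over ITIH2 0.00611 in UBE2S-KO and 0.00253 in WT.

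SERPINA1 (ENSG00000197249, chromosome 14, 94376747 to 94390693, minus strand) encodes the main plasma inhibitor of neutrophil elastase. It was at 2175, 2209 and 2249 CPM in the UBE2S-KO libraries and 2723, 2379 and 2333 CPM in the WT libraries. The groups did not overlap, and WT replicate 1 was the highest library. The log2 fold change was -0.16 (SE 0.05, edgeR adjusted p = 0.0099), and without WT replicate 1 it was -0.09 (adjusted p = 1.9e-05). Of 8 other clade A serpins 5 were tested: SERPINA10, an inhibitor of coagulation factor Xa, fell by 0.58 (SE 0.08), SERPINA3 was higher by 0.30 (SE 0.10, adjusted p = 0.021) and 3 did not pass. The call of SERPINA3 was lost with DESeq2 (adjusted p = 0.084) and without any of 3 single libraries, WT replicate 2 or UBE2S-KO replicates 1 or 2 (adjusted p = 0.075 to 0.086).

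Of 13 genes for the export and quality control of alpha-1 antitrypsin in the endoplasmic reticulum, 8 fell, 2 rose and 3 did not pass. Over all tested genes 30.7% were lower and 29.4% higher. The median log2 fold change of the 13 genes was -0.16, against -0.00060 over all tested genes. The cargo receptor gene SURF4 was at 499, 495 and 487 CPM in UBE2S-KO and 601, 607 and 599 CPM in WT, a log2 fold change of -0.29 with an SE of 0.03 (edgeR adjusted p = 1.1e-06). Set against the median of its neighbours SURF4 was at -0.11 (adjusted p = 0.0033). EDEM3, which trims mannose from misfolded glycoproteins, fell by 0.64 (SE 0.04), and EDEM2 by 0.28 (SE 0.05). SEL1L, a subunit of the degradation complex, rose by 0.15 (SE 0.03), and MCFD2, a partner of the cargo receptor LMAN1, by 0.17 (SE 0.03). Against their neighbours SEL1L was at 0.24 and MCFD2 at 0.11.

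AHSG (ENSG00000145192, chromosome 3, 186612923 to 186621318, plus strand) encodes fetuin-A, which keeps calcium phosphate from precipitating in plasma. It was at 171, 165 and 170 CPM in the UBE2S-KO libraries and 248, 248 and 247 CPM in the WT libraries. The SD of the WT libraries was 0.295% of their mean, and every UBE2S-KO library lay below them. That spread is smaller than counting error at these counts would usually give, so it is no measure of precision. An antisense gene, AC068631.1, overlaps AHSG, and reads of the pair may not be told apart. The log2 fold change was -0.55 (SE 0.03, edgeR adjusted p = 7.4e-09). The stretch before its annotated first exon, which ends 137 bases before the RefSeq start, is shown because it was the only one among the promoters of the 8 matched genes with the HNF4 core CAAAGTCCA, here as its reverse complement in capitals (RefSeq, GRCh38.p14, chr3:186612810-186612922, plus strand).
AHSG promoter: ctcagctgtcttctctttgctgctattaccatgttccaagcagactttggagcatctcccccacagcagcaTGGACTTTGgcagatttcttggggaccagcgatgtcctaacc
Of 4 cystatin relatives 3 were tested. KNG1, the kininogen gene, which lies near AHSG, fell by 1.07 (SE 0.05), with 33.3, 33.1 and 33.2 CPM in UBE2S-KO and 73.6, 65.9 and 68.9 CPM in WT. CST3, cystatin C, fell by 0.46 (SE 0.05). HRG, which lies between AHSG and KNG1, was at 0.903 CPM in UBE2S-KO and 0.720 CPM in WT and did not pass (log2 fold change 0.31, SE 0.28).

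AMBP (ENSG00000106927, chromosome 9, 114060127 to 114078472, minus strand) was at 1881, 1883 and 1900 CPM in the UBE2S-KO libraries and 1981, 2147 and 2100 CPM in the WT libraries. The UBE2S-KO libraries lay close together and below all WT libraries, and the log2 fold change was -0.14 (SE 0.03) at an edgeR adjusted p of 0.0024. ITIH2 (ENSG00000151655, chromosome 10, 7703269 to 7749520, plus strand), which encodes heavy chain H2, was at 621, 633 and 629 CPM in UBE2S-KO and 739, 708 and 703 CPM in WT. Its log2 fold change was -0.19 (SE 0.03, edgeR adjusted p = 8.2e-05), again with groups that did not overlap, but it turned to 0.11 (adjusted p = 0.0055) when the shift of its neighbours, described further on, was removed. The ratio of ITIH2 to AMBP per kilobase was 0.199, 0.203 and 0.200 in UBE2S-KO and 0.225, 0.199 and 0.202 in WT. Those ratios overlapped (difference -0.06 on the log2 scale, two-sided exact permutation p = 0.70, adjusted 0.84), and only WT replicate 1 stood outside the range of the others.

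ITIH1, ITIH3 and ITIH4 lie side by side on chromosome 3, between 52777592 and 52831479. ITIH1 (ENSG00000055957, plus strand), which encodes heavy chain H1, had 119, 139 and 107 counts in UBE2S-KO and 71, 56 and 64 counts in WT. In CPM these were 5.41, 5.94 and 4.13 in UBE2S-KO and 2.63, 2.40 and 2.28 in WT, so every UBE2S-KO library was above every WT library. The log2 fold change was 1.07 (SE 0.16, edgeR adjusted p = 6.5e-05). The ratio of summed counts, scaled by library size, was 2.10 (exact 95% binomial interval 1.76 to 2.52, counting error only). Even so ITIH1 stayed far below ITIH2: the ratio of ITIH1 to ITIH2 per kilobase was 0.00648, 0.00698 and 0.00488 in UBE2S-KO and 0.00264, 0.00252 and 0.00241 in WT.

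ITIH3 (ENSG00000162267, plus strand) had 8, 12 and 10 counts in UBE2S-KO and 16, 7 and 12 counts in WT. Its log2 fold change of -0.08 had an SE of 0.36 (95% interval -0.86 to 0.70, edgeR adjusted p = 0.85), and it changed sign when single libraries were left out, so no difference was detectable at this depth. ITIH4 (ENSG00000055955, minus strand) had estimates of 8.60, 8.03 and 8.97 counts in UBE2S-KO and 6.76, 12.2 and 6.28 counts in WT. These are not whole numbers, and a protein-coding gene on the same strand, AC006254.1, overlaps ITIH4, as does ITIH4-AS1 on the other strand. The estimates of the pair added up to whole numbers in all 6 libraries (within 0.01): 19, 19 and 12 in UBE2S-KO and 24, 14 and 22 in WT. The levels of ITIH4 alone are therefore uncertain, and the scaled summed counts of the pair gave a ratio of 0.916 (exact 95% binomial interval 0.617 to 1.36, UBE2S-KO over WT, counting error only).

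Genes that take part in the fate of the heavy chains went both ways, as did all tested genes (29.4% higher, 30.7% lower). Of 18 further heavy chain and hyaluronan genes 12 were tested: 4 were higher, 5 lower and 3 did not pass, with a median log2 fold change of -0.12. HAS2, a hyaluronan synthase, was at 1.96, 2.18 and 1.89 CPM in UBE2S-KO and 9.54, 10.3 and 9.56 CPM in WT, a log2 fold change of -2.28 with an SE of 0.11 (edgeR adjusted p = 3.6e-09). VCAN, a proteoglycan that binds hyaluronan, fell by 0.43 (SE 0.04), and HYAL2, a hyaluronidase, rose by 0.32 (SE 0.05). Of 13 enzymes of the chondroitin sulfate chain and its linker 11 were tested: 3 were higher, 2 lower and 6 did not pass. CHSY1, which extends the chondroitin chain, was at 5.37, 5.17 and 5.09 CPM in UBE2S-KO and 15.8, 16.3 and 16.9 CPM in WT (log2 fold change -1.65, SE 0.08, edgeR adjusted p = 2.5e-09). CHST11, a chondroitin sulfotransferase, fell by 0.80 (SE 0.15), and FAM20B, the kinase that acts on the xylose of the linker, rose by 0.24 (SE 0.04). With DESeq2 only 1 of the hyaluronan list and 1 of the linker list were higher, and HYAL3, among those lower, lost its call (adjusted p = 0.072).

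Several of these genes lay among neighbours that moved in 1 direction, so each was set beside the 25 tested genes on either side of it, any others of the 10 genes left out. RBP4 lay in a raised stretch of chromosome 10: 31 of its 50 neighbours were higher and 3 lower, with a median log2 fold change of 0.28, and RBP4 was below 43 of them. With that shift removed, RBP4 was at -0.36 (SE 0.04, edgeR adjusted p = 5.6e-06). ITIH2 lay on the other arm of the same chromosome in a lowered stretch: 33 of 47 neighbours were lower and 6 higher, with a median of -0.30, and ITIH2 was above 32 of them. With that shift removed its direction turned, to 0.11 (SE 0.03, edgeR adjusted p = 0.0055). The neighbours of ITIH2 themselves ran from -1.61 to 0.98. AHSG had 29 of 50 neighbours lower and 3 higher (median -0.21), and at -0.35 (SE 0.03, edgeR adjusted p = 6.4e-07) it kept its call with the shift removed. Each shift was entered as a fixed value, so the SEs and p-values with a shift removed leave out the spread of the neighbours. What lies behind these shifts was not tested.

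The remaining genes stood among neighbours with small median shifts, though single neighbours moved far. Those of TTR ran from -6.94 to 2.25, those of ITIH1 from -7.78 to 0.97 and those of ALB from -1.54 to 1.53. The neighbours of TTR had a median of 0.04, and TTR was below 48 of 50. ITIH1 was above all 50 of its neighbours, whose median was -0.03. The neighbours of SERPINA1 and AMBP had medians of -0.02 and -0.0018. The neighbours of ALB had a median of 0.08, and with this removed ALB was at -0.21 (SE 0.03, edgeR adjusted p = 2.5e-05). Its nearest neighbours on 1 side, the related genes AFP and AFM, fell, as did GC further off. Of the serpin genes around SERPINA1, SERPINA10 and SERPINA6 fell, SERPINA3 was higher, and SERPINA11, SERPINA4 and SERPINA5 did not pass (log2 fold changes -0.02, 0.09 and 0.04).

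**Figure D4:**
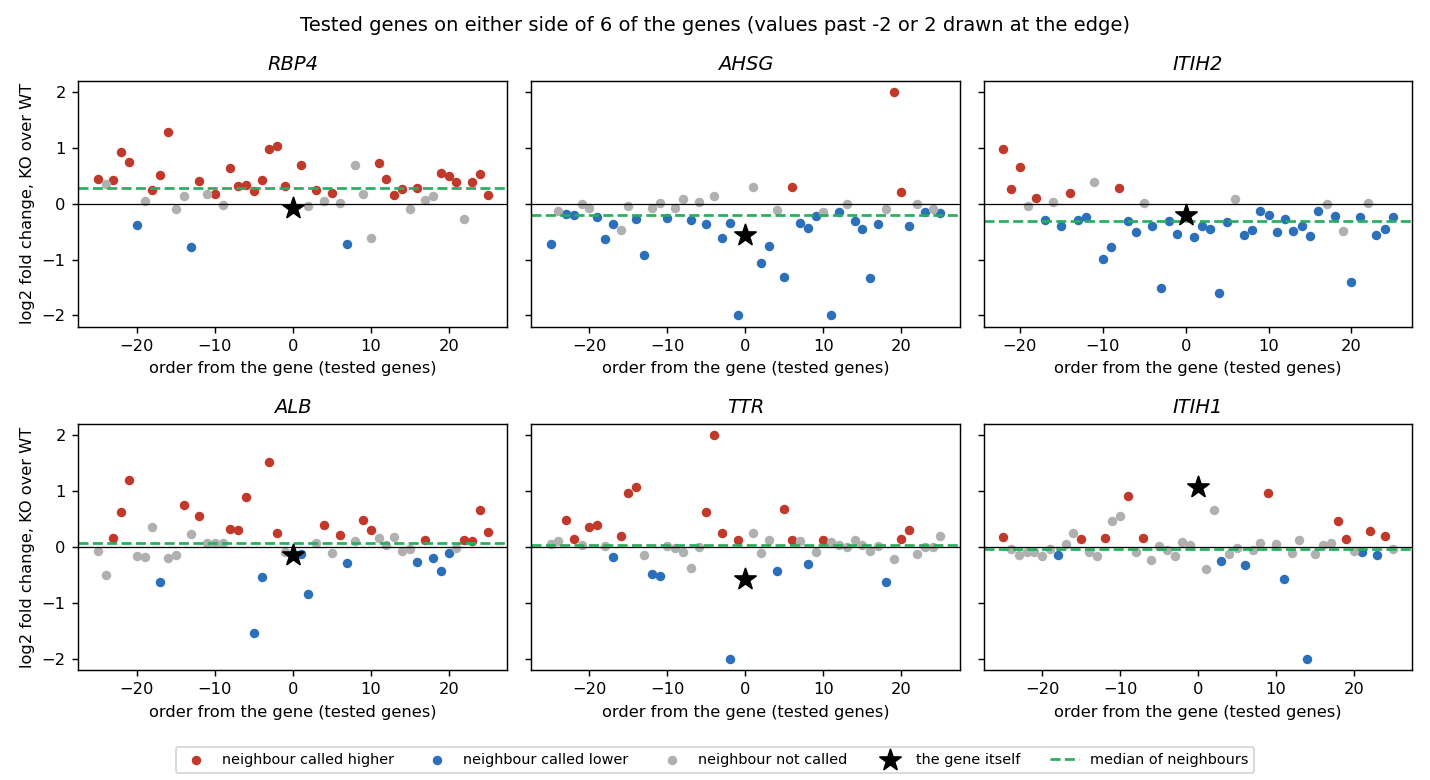
Log2 fold changes (UBE2S-KO over WT) of up to 25 tested genes on each side of RBP4, AHSG, ITIH2, ALB, TTR and ITIH1, in their order along the chromosome, with the gene itself as a star and the median of the neighbours as a dashed line; values past -2 or 2 are drawn at the edge. RBP4 lies under a raised neighbourhood (median 0.28), ITIH2 above a lowered one (median -0.30), and ITIH1 above all 50 neighbours.

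**Figure D5:**
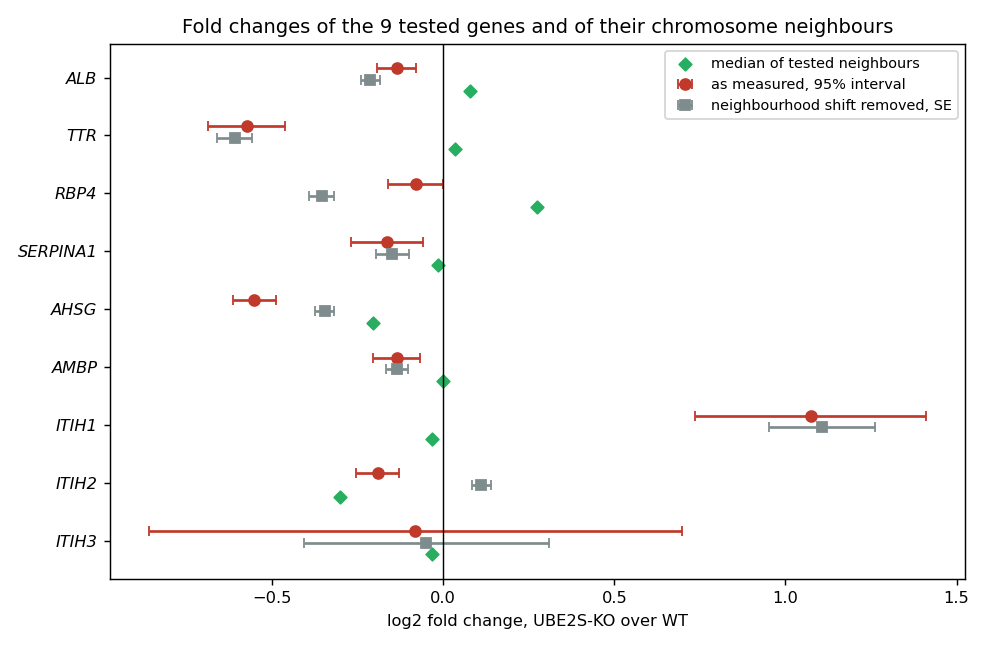
Log2 fold change (UBE2S-KO over WT) of the 9 tested genes with its 95% interval, the same with the shift of neighbours removed (bars: SE), and the median of the neighbours. The SE takes the shift as fixed. With the shift removed RBP4 stands at -0.36 and ITIH2 at 0.11, while ITIH1 stays near 1.11 and TTR near -0.61.

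Transcription factors of hepatocytes were more often lower than higher. Of 22 hepatocyte transcription factors 11 were lower, 5 higher and 6 did not pass, with a median log2 fold change of -0.12 against -0.00060 over all tested genes. The higher call of DBP was lost with DESeq2 (adjusted p = 0.16) and without WT replicate 1 or UBE2S-KO replicates 1 or 3 (adjusted p = 0.070 to 0.092). FOXA3 was at 19.8, 18.4 and 18.2 CPM in UBE2S-KO and 33.7, 32.2 and 34.0 CPM in WT, a log2 fold change of -0.83 with an SE of 0.05 (edgeR adjusted p = 5.8e-08). PROX1 fell by 0.56 (SE 0.03) and CEBPD by 0.54 (SE 0.06; log2 fold change -0.34 against its neighbours), while NR2F1 rose by 0.46 (SE 0.05) and FOXA2 by 0.20 (SE 0.04). The factors whose motifs are shown above were chosen for that reason after their values were seen: CEBPA fell by 0.48 (SE 0.04) and HNF4A by 0.25 (SE 0.03). CEBPA lay among lowered neighbours (median -0.38), and with their shift removed it was at -0.10 (edgeR adjusted p = 0.039). Whether any of the listed factors acts on the plasma protein genes in these cells was not tested. A link between the levels of these factors and those of the plasma protein genes was not tested either.

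The motif search covered both strands of the 300-base RefSeq promoter windows of 8 of the 10 genes; TTR and ITIH2 were not matched. The HNF4 core CAAAGTCCA was found at AHSG, against 0.384% of all 35116 promoters. The C/EBP motif TTGCNNAA was found at ALB, RBP4 and AHSG, against 10.5% of promoters, and CCAAT at 5 of the 8 genes, against 34.6%. The TATA box TATAAA was found at RBP4, against 11.5%, and the FOXA core TGTTTAC at 0 of the 8, against 3.42%. None of the RBP4 matches lay wholly upstream of its first RefSeq start within that start's window. No matches overlapped each other in the sequences shown. A gene with several annotated starts was counted once if any window held the motif, whereas the percentages are over single windows. Genes with several windows thus had more chances of a match than those percentages allow for.

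Other secreted liver proteins did not share 1 direction, nor did all tested genes (29.4% higher, 30.7% lower). Of 22 such genes 21 were tested, and 10 rose, 8 fell and 3 did not pass, with a median log2 fold change of 0.14. The fibrinogen gene FGB was at 1602, 1649 and 1615 CPM in UBE2S-KO and 1071, 988 and 990 CPM in WT (log2 fold change 0.67, SE 0.03, edgeR adjusted p = 6.3e-09). With its neighbours' shift removed, FGB was at 0.31 and FGG, another fibrinogen chain, at 0.24, against 0.62 as measured for FGG. APOE, an apolipoprotein, rose by 0.64 (SE 0.03). HP, the haemoglobin-binding haptoglobin, was at 8.73, 8.29 and 7.13 CPM in UBE2S-KO and 30.2, 28.8 and 30.6 CPM in WT (log2 fold change -1.90, SE 0.07), and C3 fell by 1.47 (SE 0.03).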

How the data were processed

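Poly(A) RNA was selected with oligo(dT) beads, per the labels' protocols. For 6 libraries the authors deposited estimated counts, not normalized, in a single table. The submitters' processing notes name StringTie 1.3.1, DESeq2, HISAT2 and Bowtie2 2.2.8 without saying what each did. Build, annotation and strand use: not given in the sources used here. Groups and replicate numbers came from the sample titles. Estimates were rounded and tested with edgeR 4.0.16 in R 4.3.3: filterByExpr (minimum count 10), TMM, quasi-likelihood F tests over all 13265 tested genes, Benjamini-Hochberg threshold 0.05, no covariate. SE came from the fold change and its F statistic. The fit was tested on simulated data. Identifiers of 20171 genes (99.4%) were matched to GENCODE 29 (GRCh38) for positions and exon lengths. The neighbour shift, the median over 25 tested genes on each side, entered edgeR as a fixed offset in UBE2S-KO libraries. DESeq2 1.42.0, limma-voom (limma 3.58.1), other scalings and filters, the replicate block and each library left out were alternatives. From each list of related genes the text drew on up to 3 called genes per direction with the largest change; AFP, HRG and the chromosome neighbours named were added after their values were seen. Members and lists were chosen with earlier results of these data known. Some genes of the lists are counted but not reported here by name.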

Additional observations from a re-analysis of the deposited data

How the results depend on the processing

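ALB, TTR, SERPINA1, AHSG, AMBP and ITIH1 kept their direction and an adjusted p below 0.05 in all 16 alternatives, with log2 fold changes of -0.21 to -0.12, -0.62 to -0.50, -0.21 to -0.09, -0.56 to -0.35, -0.17 to -0.11 and 0.96 to 1.22. ITIH2 did so in 15 and turned to 0.11 with the neighbourhood shift removed, which brought 2 of the genes higher. RBP4 passed the threshold only with that shift removed (-0.36) and without WT replicate 3, and leaving out single libraries gave -0.12 to -0.038. ITIH3, at -0.27 to 0.18 with single libraries left out, changed sign without WT replicate 1 (0.18) and without UBE2S-KO replicate 1 (0.0046). CHST12, a chondroitin sulfotransferase, changed sign with the shift removed (-0.050). The cause was not tested. The median over the genes ranged from -0.19 to -0.13 when single libraries were left out, and the members called were 1 higher and 6 to 7 lower. Over all genes 7142 to 8457 were then called, against 7975. DESeq2 called 3259 higher and 3488 lower genes in all.

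Replicate numbers did not pair the libraries: deviations of UBE2S-KO and WT libraries with the same number correlated at 0.024, -0.037 and 0.017 across genes. With the replicate block 3872 genes were higher and 4041 lower, and no call changed among the 10 genes, with TTR at -0.57. Low counts limit ITIH3, whose 95% interval of -0.86 to 0.70 spans the value of TTR, and ITIH4. The 3 alternatives that tested ITIH4 (no filter, DESeq2 and without UBE2S-KO replicate 2) gave 0.17 to 0.23. The adjusted p there was 0.71 to 0.87, with no call.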

Other observations

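Over 9454 other genes averaging 10 CPM or more, those whose log2 CPM followed ALB most closely over the 6 libraries were RNF185 (Pearson r = 0.999), which encodes a ubiquitin ligase of the endoplasmic reticulum membrane, the transcription factor gene MAF (r = 0.998) and MCM3 (r = 0.997), a subunit of the replicative helicase. The 6 points share 2 groups of libraries, so r is a description only. RNF185 was at 50.8, 53.3 and 52.6 CPM in UBE2S-KO and 59.6, 63.4 and 64.5 CPM in WT. Among the 7 abundant plasma protein genes, TTR and ITIH2 followed each other most closely (r = 0.995), and RBP4 and AMBP least (r = 0.334).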
